A study of Mus musculus with 12 samples.

Results

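The BCL2 family genes described here are 10 of the 49997 genes that both count tables hold, taken by gene symbol: Bcl2, Bcl2l1, Mcl1, Bcl2a1b, Bax, Bak1, Bcl2l11, Bbc3, Pmaip1 and Bid. All 10 passed the filter on low counts in each of the 5 comparisons. They were measured by poly(A) RNA sequencing in 12 libraries of thymocytes that were sorted from mouse thymus as DP cells (double positive for CD4 and CD8) or as the later CD4 cells. Each cell type came from wild-type (WT) mice and from mice with a Satb1 knockout (KO) induced by tamoxifen, with 3 libraries in each of the 4 groups: DP WT, DP KO, CD4 WT and CD4 KO. All 4 groups, WT included, are labelled as tamoxifen-treated. The labels give no Cre driver, strain, age, deleted exon or interval after tamoxifen. Since separate mice are not stated for the replicates, the p-values cover the spread among these libraries, which may be technical. Each library carries a batch number equal to its replicate number.

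Proteins of the BCL2 family decide whether the mitochondrial outer membrane is kept whole or is opened to start apoptosis. Pro-survival members (BCL2, BCL-XL from Bcl2l1, MCL1 and A1 from Bcl2a1b) hold in check the effectors BAX and BAK, and BH3-only members (BIM from Bcl2l11, PUMA from Bbc3, NOXA from Pmaip1, and BID) relieve that restraint or activate the effectors. In the thymus DP cells are known to rely on BCL-XL and to carry little BCL2, and cells that pass selection switch from BCL-XL to BCL2. BIM is known as the main BH3-only protein in the deletion of self-reactive thymocytes.

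Total counts ran from 22790504 to 62422640 per library, and 3 counts corresponded to 0.0464 to 0.134 CPM (the count scaled by the TMM-adjusted library size). The labelled cell types were checked against marker genes. The summed level of 8 DP markers was 12350 to 13440 CPM in DP WT and 1477 to 1914 CPM in CD4 WT, and that of 7 CD4-stage markers 1662 to 1737 and 2711 to 2856 CPM. In KO the DP markers summed to 7351 to 7608 CPM in DP and 2647 to 3233 CPM in CD4 cells. The CD4-stage markers summed to 1158 to 1265 CPM in DP KO and 1353 to 1458 CPM in CD4 KO. By this sum CD4 KO lay above DP KO but below DP WT. Cd3e, Cd3d and Cd3g were counted in every library, whereas Trac had no count in any. Satb1 itself was lower in KO, with a log2 fold change of -0.56 ± 0.08 (SE) in DP and -1.13 ± 0.08 in CD4 cells, and it was still counted in every KO library, at 1469 to 2873 CPM. Xist, a transcript of female cells, was nearly missing from DP WT replicate 1 (0.845 CPM) and replicate 2 (0.273 CPM) and stood at 190 to 601 CPM in the other 10 libraries. The Y-linked gene Ddx3y was counted in all 12, at 40.3 to 127 CPM, so those 10 held transcripts of both sexes. CD4 WT replicates 1 and 2 held Xist at 335 and 284 CPM, and thus differed in sex transcripts from the same-numbered DP WT libraries. For this reason results that rest on DP WT are also given with DP WT replicate 3 as the lone DP control where this changes them. In that fit the single library is assumed to vary like those of the other groups.

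Sequence before the start sites is shown for Bcl2, Bcl2a1b, Bcl2l1 and Bcl2l11, 4 of the 5 members whose change from DP to CD4 differed between KO and WT, since the study concerns a DNA-binding regulator. Windows of 250 bases before each start came from RefSeq (build GRCm38.p6, the build that mm10 names), where 9 of the 10 members were matched. The motifs searched on both strands were AGGTCA (core site of nuclear receptors), CTTTGA (TCF and LEF), TTCNNNGAA (STAT), CANNTG (E-box), AACNG (MYB) and GTAAACA (FOXO). Capitals mark every match in the 2 whole windows and the named match in the 2 short stretches. The Bcl2 window lies on chromosome 1 (chr1:106714291-106714540, minus strand) and the Bcl2a1b window on chromosome 9 (chr9:89199023-89199272, plus strand). Both are free of annotated exons.
Bcl2: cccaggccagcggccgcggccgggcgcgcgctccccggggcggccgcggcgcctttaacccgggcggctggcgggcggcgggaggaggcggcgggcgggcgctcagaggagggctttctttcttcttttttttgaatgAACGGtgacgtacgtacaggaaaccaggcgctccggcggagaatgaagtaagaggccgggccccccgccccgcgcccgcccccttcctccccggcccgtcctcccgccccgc
Bcl2a1b: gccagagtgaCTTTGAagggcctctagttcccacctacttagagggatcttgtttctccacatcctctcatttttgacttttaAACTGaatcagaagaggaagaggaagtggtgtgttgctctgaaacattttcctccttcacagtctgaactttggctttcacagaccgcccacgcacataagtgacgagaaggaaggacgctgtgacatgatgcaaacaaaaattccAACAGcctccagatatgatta
Bcl2l1, 30 bases around its AGGTCA match (chr2:152828576-152828605, minus strand): taactggccatgTGACCTtggacaggctgg
Bcl2l11, 30 bases around its GTAAACA match (chr2:128125799-128125828, plus strand): caagacactaggGTAAACAcgccggggtgg

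The Bcl2 window was 74.8% G and C and held 1 match, to the MYB motif, which 74.2% of the 32851 RefSeq windows of this length also hold. The Bcl2a1b window was 44.8% G and C, against a median of 52.4% over all windows, and held matches to the TCF and MYB motifs. The AGGTCA match of Bcl2l1 was in the window of 1 of its 3 start sites, began 104 bases before the start at 152828489, overlapped an E-box match, and lay in a stretch that is exonic in longer Bcl2l1 transcripts. AGGTCA was found in 14% of all windows. The GTAAACA match of Bcl2l11 began 227 bases before its start, in a stretch annotated as an exon of a neighbouring gene, and this motif was found in 3.17% of all windows. Those windows of Bcl2l1 and Bcl2l11 also held 3 and 2 matches to the MYB motif. The window of Bid, the other member with such a difference, held 0 matches to any of the motifs and is not printed, and 1 window of Bbc3 held a GTAAACA match. These matches describe the letters of the windows only, and binding was not measured.

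The members differ in how cleanly reads can be assigned. Bcl2 (chromosome 1, 106538176 to 106714290, minus strand, mm10), Bcl2l1 (chromosome 2, 152758732 to 152833803, minus strand) and Mcl1 (chromosome 3, 95656944 to 95663179, plus strand) share no exon base with another annotated gene. The same holds for Bax (chromosome 7, 45461695 to 45466903, minus strand), Bak1 (chromosome 17, 27019812 to 27028627, minus strand) and Bbc3 (chromosome 7, 16308398 to 16318334, plus strand). Bcl2l11 (chromosome 2, 128126038 to 128162547, plus strand) shares 1.92% of its exon bases with its neighbour Acoxl. Bid (chromosome 6, 120893119 to 120917062, minus strand) is also annotated on an alternative sequence, with 6 exons there, so its counts are uncertain. Bcl2a1b (chromosome 9, 89199273 to 89207838, plus strand) has close copies: 31.1% of the 100-base stretches of its transcripts also occur in Bcl2a1d and 16.4% in Bcl2a1a, so reads can be shared or lost among them.

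The comparison of CD4 with DP cells in WT gives the course of the family that the KO is set against. Of the 10 members 4 rose and 2 fell from DP to CD4, where 55% of 17369 genes tested were called (27.9% higher and 27.1% lower; edgeR's quasi-likelihood test, adjusted p under 0.05). The share of members called was thus near that of all genes, and their median log2 fold change was 0.23 against 0.00 for all genes. In bulk RNA a change in the share of a cell type and a change in RNA per cell cannot be told apart.

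Bcl2, the pro-survival gene of mature T cells, stood at 25.6, 23.4 and 31.9 CPM in DP WT replicates 1, 2 and 3 and at 275, 309 and 344 CPM in CD4 WT. Every CD4 library lay far above every DP library. Bcl2 rose 11.5-fold, or 3.52 ± 0.13 on the log2 scale (adjusted p = 1.39e-08), and within the 3 batches the difference in log2 CPM was 3.40, 3.70 and 3.41. Bcl2l1, which encodes BCL-XL, went the other way, from 284, 299 and 274 CPM to 68.5, 70.1 and 69.9 CPM. Its groups did not overlap, and the CD4 WT libraries lay close together. On the log2 scale the change was -2.04 ± 0.06 (adjusted p = 7.15e-09).

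Bcl2a1b, which encodes A1, stood at 1.05, 0.441 and 0.625 CPM in DP WT and 14.1, 13.3 and 12.5 CPM in CD4 WT. It was barely expressed in DP cells, with 14 to 46 counts, and had 373 to 732 counts in CD4 cells (log2 fold change 4.22 ± 0.26, adjusted p = 4.21e-07). Myeloid and dendritic cells also express A1. The summed level of 7 of their markers was 69.2 to 84.7 CPM in DP WT and 53.8 to 81.4 CPM in CD4 WT. Of the 7, 5 rose and 2 fell, and the largest part of the sum, Cst3, fell from a mean of 58.8 to 37.0 CPM. Of 5 B cell markers 2 rose and 1 fell. The part of these cell types in the rise of Bcl2a1b was not tested. Mcl1, whose product is needed at every stage of T cell life, rose less, from 430, 397 and 489 CPM to 543, 532 and 716 CPM. Replicate 3 was the highest of the 3 libraries in both groups. Mcl1 rose by 0.44 ± 0.12 (adjusted p = 0.00997), and against DP WT replicate 3 alone the value was 0.29 (adjusted p = 0.224).

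The effectors differed little between the stages. Bax stood at 54.5, 53.5 and 37.8 CPM in DP WT and 64.4, 59.9 and 57.2 CPM in CD4 WT. DP WT replicate 3 was the low library, and the groups did not overlap. The log2 fold change of 0.31 did not pass (95% interval 0.02 to 0.59, adjusted p = 0.0672), but Bax was called higher with the batch as a block (0.32, adjusted p = 0.013), without DP WT replicate 1 (0.40, 0.0388) and against DP WT replicate 3 alone (0.68, 0.00255). Bak1 was at 71.3 to 82.9 CPM in DP WT and 64.5 to 78.7 CPM in CD4 WT, overlapping ranges, with a log2 fold change of -0.13 (95% interval -0.33 to 0.08, adjusted p = 0.274).

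Among the BH3-only genes 1 rose, 1 fell and the other two were not called. Bcl2l11, which encodes BIM, stood at 60.6, 62.5 and 92.3 CPM in DP WT and at 123, 127 and 117 CPM in CD4 WT. Replicate 3 was the high library of the DP group, below all of CD4. Bcl2l11 rose by 0.77 ± 0.14 (adjusted p = 0.00105), and 0.41 (adjusted p = 0.0138) against DP WT replicate 3 alone. Bid, whose product passes the signal of death receptors to mitochondria, fell from 36.7, 37.7 and 35.9 CPM to 12.4, 12.6 and 16.5 CPM. Its groups were far apart, and it changed by -1.42 ± 0.12 on the log2 scale (adjusted p = 3.39e-06). Bbc3, a p53 target that encodes PUMA, had a log2 fold change of -0.06 (95% interval -0.37 to 0.25), and Pmaip1, which encodes NOXA, one of 0.15 (-0.52 to 0.82).

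**Figure D1:**
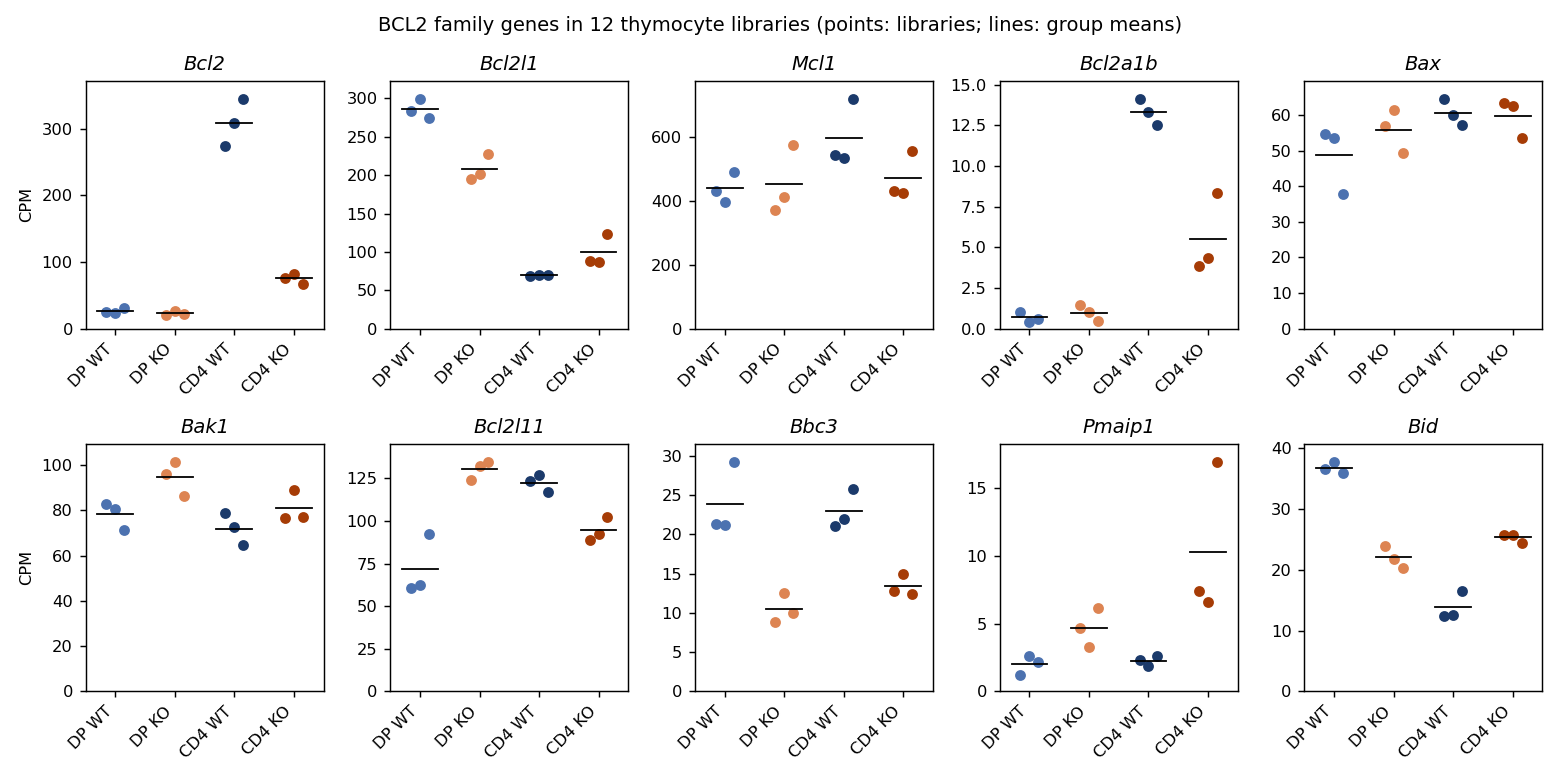
Level of each of the 10 BCL2 family genes in CPM (vertical axis, linear from 0) in the 12 libraries; points are libraries, in the order of replicates 1 to 3, lines are means of the 3 libraries of DP WT, DP KO, CD4 WT and CD4 KO. Bcl2 and Bcl2a1b were highest in CD4 WT, Bcl2l1 and Bid in DP WT, and Bbc3 was lower in both KO groups than in both WT groups.

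In DP cells the KO changed 6 of the 10 members, and the changes ran in opposite directions within the BH3-only genes. Bcl2l11 and Pmaip1 rose and Bbc3 and Bid fell, while Bcl2l1 fell and Bak1 rose. In this comparison 30.8% of 16776 genes were called, 16.7% higher and 14.1% lower. The median log2 fold change of the 10 was 0.13 against 0.01 for all genes. Of these 6 calls only those of Bcl2l11, Bbc3 and Bid were also made against DP WT replicate 3 alone, a fit in which 10.6% of genes were called.

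Of the pro-survival genes, Bcl2l1 stood at 195, 201 and 228 CPM in DP KO against 274 to 299 CPM in DP WT. No KO library reached the WT range. The change was -0.45 ± 0.08 (adjusted p = 0.00214) and -0.40 (adjusted p = 0.0947) against DP WT replicate 3 alone. Bcl2 stood at 21.2, 26.4 and 22.2 CPM in DP KO, within or just below the WT range, and was not called (log2 fold change -0.20, 95% interval -0.50 to 0.10, adjusted p = 0.301). Mcl1 stood at 371, 412 and 575 CPM in DP KO, a range that holds that of DP WT, with a log2 fold change of 0.05 (-0.28 to 0.39). Bcl2a1b had 20 to 87 counts in the DP KO libraries, and its log2 fold change of 0.48 had an interval of -0.59 to 1.55.

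Bcl2l11 was at 124, 132 and 134 CPM in DP KO, above all 3 DP WT libraries. It rose 1.83-fold, by 0.88 ± 0.15 on the log2 scale (adjusted p = 0.00171), and 0.50 (adjusted p = 0.0365) against DP WT replicate 3, the WT library with the most Bcl2l11. Bbc3 was at 8.82, 12.6 and 9.95 CPM against 21.3, 21.2 and 29.2 CPM in WT. The groups were well apart, and the change was -1.18 ± 0.17 (adjusted p = 0.000706). Bid was at 23.9, 21.8 and 20.4 CPM in KO and changed by -0.73 ± 0.09 (adjusted p = 0.000332), with same-batch differences of -0.61, -0.78 and -0.80.

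Pmaip1 had low levels throughout, 4.68, 3.26 and 6.12 CPM in DP KO against 1.23, 2.64 and 2.19 CPM in WT. The groups did not overlap, and the log2 fold change was 1.23 ± 0.32 (adjusted p = 0.017). It was not called without DP WT replicate 1 (0.94, adjusted p = 0.0538) or against DP WT replicate 3 alone (1.10, 0.152). Bak1 was at 86.3 to 101 CPM in KO and 71.3 to 82.9 CPM in WT (log2 fold change 0.28 ± 0.09, adjusted p = 0.0343). The call of Bak1 was lost without DP KO replicate 1 or 2, or any 1 of the 3 DP WT libraries (adjusted p = 0.0509 to 0.104), and against DP WT replicate 3 alone (0.41, 0.0989). Bax was at 49.2 to 61.5 CPM in KO and was not called (0.21, 95% interval -0.11 to 0.53).

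Other transcripts moved beside these in DP KO. Of the 8 DP markers 7 fell and 1 rose, and their summed level was 7351 to 7608 CPM in DP KO against 12350 to 13440 CPM in DP WT. That of the 5 cycling markers was 1748 to 3125 CPM against 2480 to 3140 CPM, with 1 of 5 called lower. Their part in the changes of the BCL2 family was not tested.

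**Figure D2:**
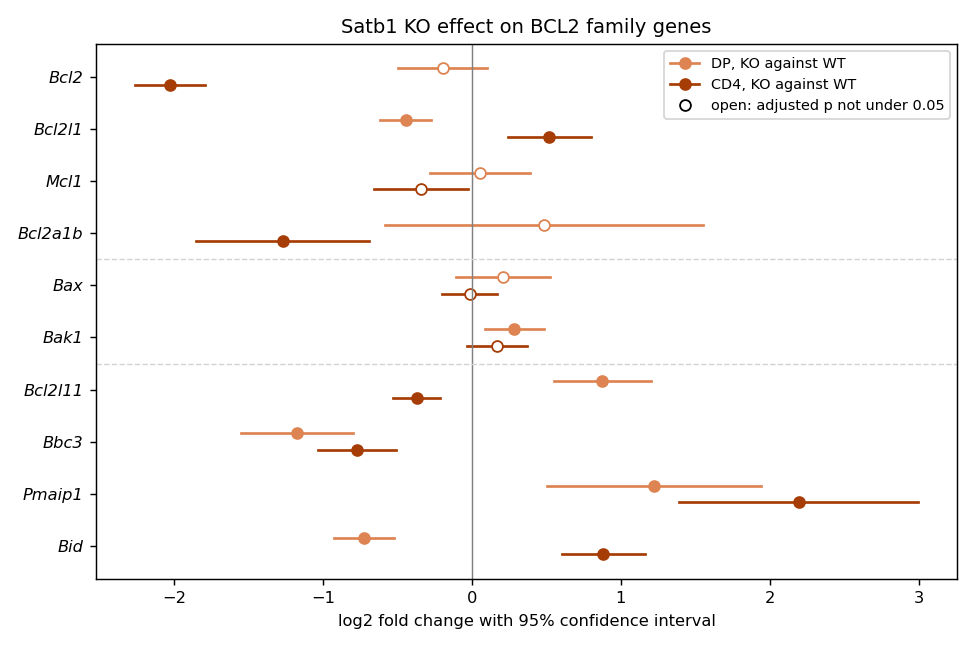
Log2 fold change of KO against WT (horizontal axis) in DP and in CD4 cells for the 10 genes, with 95% confidence intervals from the edgeR fit of 3 against 3 libraries; filled points had an adjusted p under 0.05, and dashed lines part pro-survival genes, effectors and BH3-only genes. Bcl2l1, Bcl2l11 and Bid lie on opposite sides of 0 in the 2 cell types, while Bbc3 lies below 0 and Pmaip1 above 0 in both.

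In CD4 cells the KO changed 7 of the 10 members: Bcl2, Bcl2a1b, Bcl2l11 and Bbc3 fell, and Bcl2l1, Pmaip1 and Bid rose. Among 17316 genes 39.5% were called, 20.9% higher and 18.6% lower. The median log2 fold change of the members was -0.18 against 0.00 for all genes. All 7 calls were also made under each of the other fits and with any 1 library left out.

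Bcl2 was at 76.8, 82.9 and 67.5 CPM in CD4 KO, 4.08-fold lower than in CD4 WT and above every DP library. The log2 change was -2.03 ± 0.11 (adjusted p = 1.76e-06), and the same-batch differences were -1.83, -1.89 and -2.34. Bcl2l1 was at 88.7, 86.9 and 123 CPM in CD4 KO, all above the 68.5 to 70.1 CPM of CD4 WT and below all DP libraries. Replicate 3 was the high library. Its log2 fold change was 0.52 ± 0.12 (adjusted p = 0.00847).

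Bcl2a1b was at 3.88, 4.37 and 8.35 CPM in CD4 KO, again with replicate 3 highest, and below all CD4 WT libraries. It changed by -1.27 ± 0.26 (adjusted p = 0.00361). Its copies Bcl2a1d and Bcl2a1a fell too, by 1.44 and 1.29 on the log2 scale, which are not independent counts given the shared sequence. The myeloid and dendritic markers summed to 68.1 to 96.9 CPM in CD4 KO against 53.8 to 81.4 CPM in CD4 WT, with 1 of 7 called higher and 0 lower. The largest part of the sum, Cst3, had a mean of 51.0 CPM in CD4 KO and 37.0 CPM in CD4 WT. The part of these cell types in the fall of Bcl2a1b was not tested. Mcl1, at 432, 422 and 556 CPM in CD4 KO, was not called (-0.34, 95% interval -0.66 to -0.03, adjusted p = 0.0803). It was lower in KO in each batch, by -0.33, -0.33 and -0.37, and with the batch as a block its adjusted p was 0.000636. Without CD4 KO replicate 3 it was 0.0143, and 0.0296 with the DESeq2 Wald test.

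Bcl2l11 was at 88.9, 92.3 and 102 CPM in CD4 KO and 117 to 127 CPM in CD4 WT, a change of -0.37 ± 0.07 (adjusted p = 0.00255). Its KO libraries lay below every WT library of CD4 cells, where those of DP cells lay above theirs. Bid was at 25.8, 25.8 and 24.5 CPM in KO, above the 12.4 to 16.5 CPM of WT, with 0.88 ± 0.12 (adjusted p = 0.000417). Bbc3 was at 12.8, 14.9 and 12.4 CPM in KO against 21.1 to 25.8 CPM in WT, with -0.77 ± 0.12 (adjusted p = 0.000683). Pmaip1 was at 7.37, 6.61 and 16.9 CPM in KO against 1.86 to 2.58 CPM in WT, with 2.19 ± 0.36 (adjusted p = 0.00104). The KO libraries of Pmaip1 were spread widely, with replicate 3 highest.

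The effectors were not called in CD4 KO. Bax had a log2 fold change of -0.02 (95% interval -0.20 to 0.17) and Bak1 one of 0.17 (-0.03 to 0.37).

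The levels of marker genes in the CD4 libraries differed by genotype as well. Of the 8 DP markers 6 rose and 1 fell in CD4 KO, with a summed level of 2647 to 3233 CPM against 1477 to 1914 CPM. The 7 CD4-stage markers summed to 1353 to 1458 CPM in KO against 2711 to 2856 CPM in WT, with 5 called lower. All 5 cycling markers rose, from a sum of 498 to 638 CPM to one of 1429 to 1923 CPM. Their part in the changes of the BCL2 family was not tested.

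The difference between the KO effects, CD4 minus DP, tested over all 12 libraries, is also the difference between the courses from DP to CD4 in KO and in WT. It was called for 5 of the 10 members, 2 higher and 3 lower, where 27.8% of 18431 genes were called (14.4% higher and 13.4% lower). The values were -1.82 ± 0.18 for Bcl2 (adjusted p = 6.94e-06), 0.98 ± 0.16 for Bcl2l1 (0.000449), -1.24 ± 0.18 for Bcl2l11 (0.000176) and 1.62 ± 0.15 for Bid (5.58e-06). That of Bcl2a1b was -1.75 ± 0.55 (adjusted p = 0.0295). Its call was lost without DP KO replicate 1 or 2, DP WT replicate 2 or 3, CD4 KO replicate 1 or 2, or CD4 WT replicate 1 or 2 (adjusted p = 0.0501 to 0.0966), and against DP WT replicate 3 alone (0.126).

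The effects on the other members were not shown to differ between the stages: Bbc3 at 0.41 (95% interval -0.06 to 0.89), Pmaip1 at 0.98 (-0.16 to 2.12), Bak1 at -0.11 (-0.39 to 0.18), Bax at -0.21 (-0.60 to 0.17) and Mcl1 at -0.39 (-0.89 to 0.11). Mcl1 was called with the batch as a block (-0.37, adjusted p = 0.0128), and Bax against DP WT replicate 3 alone (-0.57, adjusted p = 0.0366).

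In KO cells the change from DP to CD4 had the same sign as in WT for Bcl2, Bcl2l1 and Bcl2a1b and was smaller in size. Bcl2 rose by 1.72 ± 0.11 (adjusted p = 4.03e-05), or 3.30-fold against 11.5-fold in WT. Bcl2l1 changed by -1.04 ± 0.14 (adjusted p = 0.00144), or 2.06-fold lower against 4.12-fold in WT. Bcl2a1b rose 5.65-fold (adjusted p = 0.00463). Of the myeloid and dendritic markers 4 of 7 rose and 1 fell in this comparison, and of the B cell markers 2 of 5 rose and 1 fell, and their part in the rise of Bcl2a1b was not tested. Bcl2l11 took the opposite course to WT and fell by 0.44 on the log2 scale (adjusted p = 0.00384), in each of the 3 batches (-0.48, -0.52 and -0.40).

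In total 2 members rose and 2 fell from DP to CD4 in KO, where 21.7% of 16910 genes were called (13.9% higher and 7.82% lower). With the batch as a block 5 rose and 3 fell, in a fit that called 38% of the genes. The 4 added by the block were Pmaip1 (1.07, adjusted p = 0.000841), Bbc3 (0.38, 0.0117), Bid (0.22, 0.0308) and Bak1 (-0.21, 0.0107). Bid thus fell 2.68-fold with maturation in WT and was not called in KO without the block (0.22, 95% interval 0.02 to 0.42, adjusted p = 0.115).

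**Figure D3:**
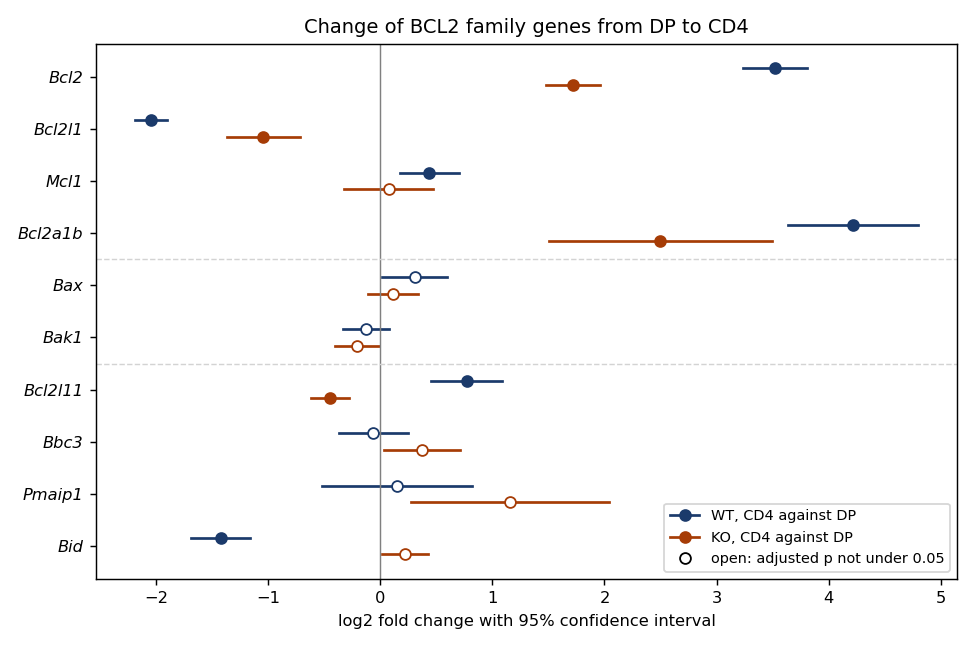
Log2 fold change of CD4 against DP cells (horizontal axis) in WT and in KO for the 10 genes, with 95% confidence intervals from fits of 3 against 3 libraries without the batch; filled points had an adjusted p under 0.05. The rise of Bcl2 was 3.52 in WT and 1.72 in KO, the change of Bcl2l1 -2.04 and -1.04, and Bcl2l11 and Bid changed side between WT and KO.

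The switch between the 2 main survival genes can be read as a ratio within each library, with both genes scaled to their exon length (7349 bases for Bcl2 and 7335 for Bcl2l1). In CPM per kilobase, Bcl2 was 0.0902, 0.0781 and 0.116 times the level of Bcl2l1 in DP WT replicates 1, 2 and 3, and 4.01, 4.40 and 4.91 times in CD4 WT. In DP KO the ratio was 0.109, 0.131 and 0.0972, within or just above the range of DP WT. In CD4 KO it was 0.864, 0.952 and 0.546. Each CD4 WT library thus held more Bcl2 than Bcl2l1, and each CD4 KO library less. On the log2 scale the means were -3.42 ± 0.29 (SD, n = 3) in DP WT, -3.17 ± 0.22 in DP KO, 2.14 ± 0.15 in CD4 WT and -0.39 ± 0.43 in CD4 KO. The ratio combines genes chosen with earlier results known and carries no test.

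**Figure D4:**
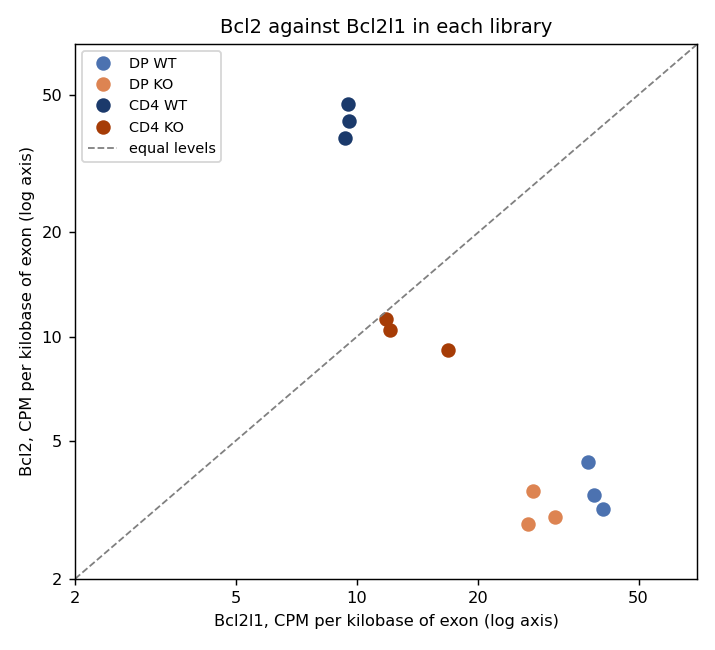
Level of Bcl2 (vertical axis) against that of Bcl2l1 (horizontal axis) in each of the 12 libraries, both in CPM per kilobase of exon on log axes; the dashed line marks equal levels. The DP libraries of both genotypes lie far below the line, the 3 CD4 WT libraries above it, and the 3 CD4 KO libraries just below it, at ratios of 0.546 to 0.952.

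The same scaling shows the make-up of each class of members, as shares of the summed CPM per kilobase of the members named here. Mcl1 was the largest share of the 4 pro-survival genes in every group, 65.6% ± 2.9 (SD, n = 3) in DP WT, 71.9% ± 3.5 in DP KO, 61.9% ± 3.0 in CD4 WT and 74.2% ± 0.6 in CD4 KO. Bcl2l1 made up 30.8% ± 3.2 in DP WT and Bcl2 23.1% ± 1.4 in CD4 WT. In CD4 KO their shares were 11.2% ± 0.5 and 8.77% ± 2.06, and Bcl2a1b, with its uncertain counts, took 5.85% ± 1.61 against 9.68% ± 1.64 in CD4 WT. The summed level of the 4 genes was 168 to 209 CPM per kilobase in CD4 WT and 109 to 143 in CD4 KO, ranges that did not overlap. It was 120 to 136 in DP WT and 102 to 144 in DP KO, so CD4 KO lay in the range of the DP groups.

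The summed level of the 4 BH3-only members was 28.9 to 34.2 CPM per kilobase in DP WT, 26.3 to 26.7 in DP KO, 24.0 to 26.8 in CD4 WT and 26.2 to 30.3 in CD4 KO. The DP WT range lay above that of DP KO. This sum leaves out the BH3-only genes Bmf, at 18.0 ± 3.1, 20.2 ± 7.2, 3.21 ± 0.62 and 9.92 ± 1.18 CPM per kilobase in DP WT, DP KO, CD4 WT and CD4 KO (SD, n = 3), and Bad, at 10.9 ± 1.8, 11.6 ± 0.6, 5.35 ± 0.48 and 8.16 ± 0.54 in the same order, both lowest in CD4 WT. The shares that follow are of the 4 members alone. Bid was 53.4% ± 5.5 (SD, n = 3) of it in DP WT and 24.6% ± 2.6 in CD4 WT, with 37.3% ± 3.2 in DP KO and 41.1% ± 4.2 in CD4 KO. Bcl2l11 was 20.4% ± 3.1 in DP WT and 43.8% ± 1.6 in DP KO, and 43.7% ± 4.2 in CD4 WT and 30.3% ± 0.3 in CD4 KO. For both genes the KO groups thus lay closer to each other than the WT groups did. Bbc3 was 23.8% ± 2.4 and 28.3% ± 1.4 in DP and CD4 WT and 12.2% ± 2.2 and 15.02% ± 2.3 in DP and CD4 KO. The Bid share used the exon length of chromosome 6 alone, 2231 bases.

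**Figure D5:**
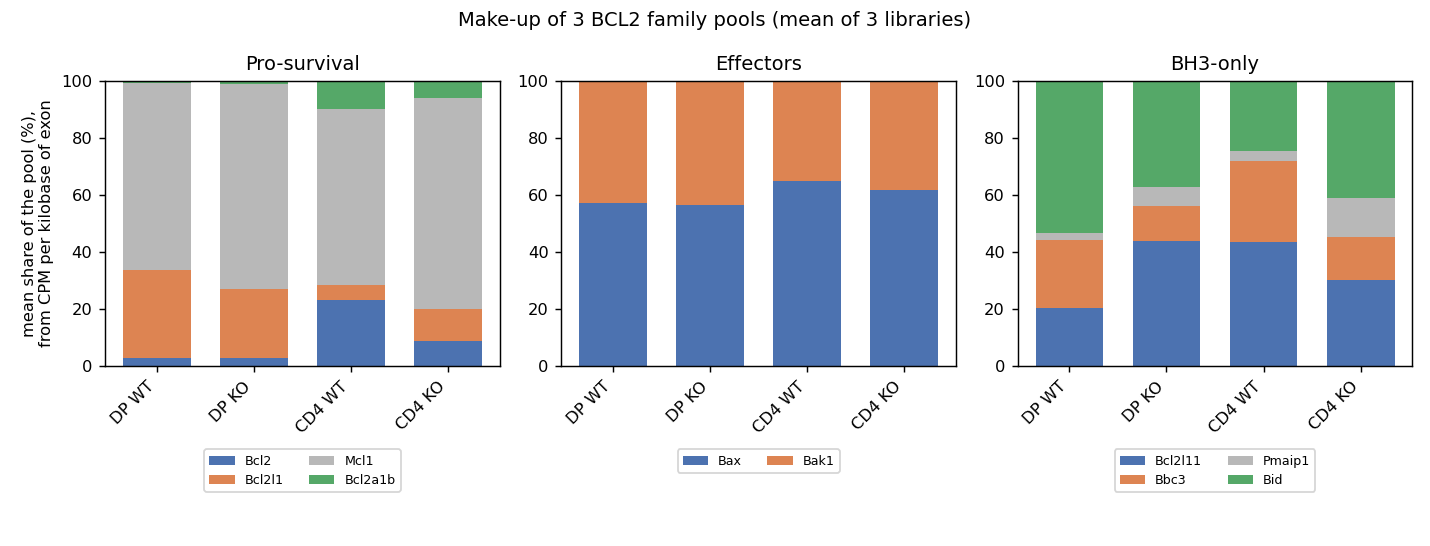
Mean share of each gene (vertical axis, percent, stacked from 0 to 100) in the summed CPM per kilobase of 4 pro-survival genes, 2 effectors and 4 BH3-only genes, for DP WT, DP KO, CD4 WT and CD4 KO (3 libraries each). Bcl2 takes 23.1% of the pro-survival sum in CD4 WT and 8.77% in CD4 KO, and Bcl2l11 takes 20.4% of the BH3-only sum in DP WT and 43.8% in DP KO.

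Of 16 further BCL2 family genes 11 were tested in DP KO, and 1 rose and 1 fell, where 30.8% of all genes were called. Bcl2l2, which encodes the pro-survival protein BCL-W, rose by 0.70 ± 0.21 (adjusted p = 0.0295), a call lost without DP KO replicate 1 or 2 or DP WT replicate 1 or 2 (0.0772 to 0.103) and against DP WT replicate 3 alone (0.467). Bcl2l13, also annotated on an alternative sequence, changed by -0.32 ± 0.06 (adjusted p = 0.00511), with an adjusted p of 0.164 against DP WT replicate 3 alone. In CD4 KO 2 of 12 rose and 2 fell, where 39.5% of all genes were called. Bmf, a BH3-only gene, rose from 16.6 ± 3.2 to 51.3 ± 6.1 CPM (SD, n = 3), by 1.63 ± 0.14 on the log2 scale (adjusted p = 2.49e-05). Its level was 92.9 ± 16.2 CPM in DP WT and 104 ± 37.4 CPM in DP KO. Bad, another BH3-only gene, rose by 0.61 ± 0.12 (adjusted p = 0.00313), with 34% of its exon bases shared with Gpr137 on the other strand.

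The steps after the mitochondrion were followed in 12 genes, all tested. In DP KO 2 rose and 1 fell, where 30.8% of all genes were called (16.7% higher and 14.1% lower). Casp9, the initiator caspase of the apoptosome, rose by 0.69 ± 0.10 (adjusted p = 0.000801), from 13.1 ± 1.0 to 21.1 ± 1.2 CPM (SD, n = 3), and Casp6 changed by -0.56 ± 0.10 (0.00308). Against DP WT replicate 3 alone Casp6 was not called (0.137). In CD4 KO 7 rose and 0 fell, where 39.5% of all genes were called (20.9% higher and 18.6% lower). The median log2 fold change there was 0.33 over the 12 genes against 0.00 over all genes. Apaf1, the scaffold of the apoptosome, rose by 0.69 ± 0.09 (adjusted p = 0.000297). In WT 6 of the 12 fell from DP to CD4 and 0 rose, where 55% of all genes were called (27.9% higher and 27.1% lower). In KO 1 fell and 0 rose, where 21.7% were called (13.9% higher and 7.82% lower). That gene was Casp9 (-0.36, adjusted p = 0.0336), whose call was lost without any 1 of the 3 DP KO libraries or CD4 KO replicate 1 or 2 (0.061 to 0.114). With the batch as a block Apaf1 (-0.26, adjusted p = 0.00164) and Xiap (-0.13, 0.0425), an inhibitor of caspases, were also called lower in KO. Apaf1 was called as well with no filter on low counts (0.0071) and without CD4 KO replicate 3 (0.0449).

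Known regulators of the members in thymocytes, 19 genes and all tested, moved in both directions. In DP KO 4 rose and 7 fell, where 30.8% of all genes were called. Again 4 rose and 7 fell in CD4 KO, where 39.5% of all genes were called. Myb, a factor of DP cell survival, had -0.87 ± 0.07 in DP KO (adjusted p = 2.88e-05) and 1.74 ± 0.08 in CD4 KO (1.28e-06).

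Il7r, the receptor whose signal through JAK kinases and STAT5 induces Bcl2, stood at 8.33 ± 1.75 CPM in DP WT and 148 ± 23.5 CPM in DP KO, and rose by 4.16 ± 0.17 (adjusted p = 3.56e-07), while Bcl2 was not called there. The CD4 groups had like Il7r levels, 472 ± 13.9 CPM (WT) and 478 ± 43.7 CPM (KO; SD, n = 3), a log2 difference of 0.02 (95% interval -0.16 to 0.20). In CD4 KO Il2rg, which encodes the gamma chain that pairs with IL7R, fell by 0.87, and of the genes downstream of the receptor Jak1 fell by 0.64, Jak3 by 0.84, Stat5b by 0.53 and Stat5a by 0.22 on the log2 scale. In DP KO, where Bcl2 was not called, Stat5b had -0.48 ± 0.06 (adjusted p = 0.000448), Stat5a -0.405 (0.00129) and Il2rg -0.288 (0.0208). Jak1 (0.056) and Jak3 (0.369) were not called there. The part of these genes in the level of Bcl2 was not tested.

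Genes whose levels ran most like those of Bcl2 and Bcl2l1 were ranked by Pearson's r of log2 CPM over the 12 libraries among 7835 genes whose average log2 CPM reached 4. Genes with symbols of predicted genes or clones were left out beforehand. The points share the 4 groups and the stage of the cells, so high values are common and carry no test. For Bcl2 the highest were Erf (0.99), Rcbtb1, Skil, Malt1 and Vopp1, and the lowest Gpr162 (-0.99), Thy1, Mr1, Rell1 and Lig4. Skil, which encodes a repressor of SMAD signalling, stood at 43.3, 36.2, 248 and 79.5 CPM as means of DP WT, DP KO, CD4 WT and CD4 KO. For Bcl2l1 the highest were Ssbp2 (0.99), Smarcd2, Atl2, Ino80c and Ndufaf3, and the lowest Sema4a (-0.99), Inpp1, Inpp4a, Ipcef1 and Ripor2. Smarcd2, a subunit of a chromatin remodeller, stood at 498, 374, 212 and 263 CPM in the same order.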

How the data were processed

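Poly(A) RNA of sorted thymocytes was sequenced as paired reads, and the authors deposited unnormalized counts by gene, 1 table for DP and 1 for CD4 libraries. Per the submitters' processing notes, the build was mm10, and Subread 1.0.1, R 4.1.5 and DESeq2 are listed without roles. How multiply aligned reads and strand were handled is not stated there. Exon lengths and coordinates are those of the DP table, per the file headers. The members and lists were chosen with earlier results of these data known. Every member is named in each comparison, with up to 3 genes of each wider list by smallest adjusted p; some genes this rule names are not reported here. Jak1, Stat5a, Bcl2a1a, Jak3, Stat5b and Il7r in CD4 KO, and Il2rg, Stat5a, Jak1 and Jak3 in DP KO, fall outside this rule. They were named in those comparisons after their values were seen.

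Counts were fitted with edgeR 4.0.16 in R 4.3.3 (quasi-likelihood test, TMM, filterByExpr). A call means an adjusted p (Benjamini-Hochberg, all genes tested) under 0.05. Every adjusted p comes from this test unless another is named; SE is the log2 fold change over the square root of F. Differences within batches and correlations used log2 CPM with a pseudocount of 0.5. Scripts were tested on simulated data. The batch label pairs libraries by number. Deviations from group means correlated at 0.12 to 0.34 between same-numbered CD4 libraries of KO and WT, and at -0.25 to 0.18 between differently numbered ones. In DP the ranges were -0.00 to 0.18 and -0.13 to 0.15. Between stages they were 0.15 to 0.27 and -0.23 to 0.06 in WT, and 0.23 to 0.49 and -0.43 to 0.21 in KO. For KO against WT the ranges thus overlapped in both cell types, whereas between stages they did not overlap in WT or in KO. The reported fits from DP to CD4 leave this pairing by batch out, so calls that change with the batch as a block are given beside them. No pair of libraries in a group was a duplicate (chi-square per degree of freedom 15.2 to 50.8). Alternatives were DESeq2 1.42.0 size factors and Wald test, limma-voom 3.58.1, other filters, 1 model over 12 libraries, the batch as a block, and libraries left out. Figures used matplotlib 3.10.9. Counts of 3 set the limit of detection, which covers counting error only.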

Additional observations from a re-analysis of the deposited data

Results flagged for a closer look

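Satb1 itself fell further in CD4 KO than in DP KO, so in this section stage and depth of its loss cannot be told apart. Among the members, the KO effect differed between CD4 and DP cells (CD4 minus DP, test of the interaction) for Bcl2 (-1.82), Bcl2l1 (0.98), Bcl2a1b (-1.75), Bcl2l11 (-1.24) and Bid (1.62). Of the genes named from the wider lists it differed for Bcl2a1d (-1.89, adjusted p = 0.00177), Bmf (1.45, 0.00408) and Bcl2l13 (0.34, 0.0138) in the family, for Cycs (0.29, 0.0131) after the mitochondrion, and for Myb (2.62, 2.3e-08) and Il7r (-4.13, 3.2e-08) among the regulators (edgeR's quasi-likelihood test). Over all 12 genes after the mitochondrion the difference was called higher for 5 and lower for 0. Among all genes 27.8% were called, 14.4% higher and 13.4% lower. Bcl2l13 and Cycs were not called against DP WT replicate 3 alone (adjusted p = 0.119 and 0.13), nor with no filter on low counts (0.118 and 0.232). Leaving out 1 library ended the call of Bcl2l13 for DP KO replicate 2, DP WT replicate 2, CD4 KO replicate 2 and CD4 WT replicate 3, with adjusted p up to 0.0678. It ended that of Cycs for DP KO replicates 1 and 2, DP WT replicate 2, CD4 KO replicate 3 and CD4 WT replicate 2, with adjusted p up to 0.0546.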

How the results depend on the processing

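Of 730 values of members under an alternative, 675 kept their direction and side of the threshold, 19 lost a call, 24 gained one and 12 changed sign. Each of those 12 was a change not called in the reported fit, and the cause was not tested. Mcl1 in DP KO was -0.11 against DP WT replicate 3 alone and -0.13 to 0.19 with 1 library left out. Bbc3 from DP to CD4 in WT was 0.011 with no filter on low counts and -0.14 to 0.11 with 1 library left out. Bak1 there was 0.018 against DP WT replicate 3 alone. Left-out libraries also gave Bax in CD4 KO -0.054 to 0.063, Pmaip1 in the WT course -0.12 to 0.43 and Mcl1 in the KO course -0.077 to 0.275. Against DP WT replicate 3 alone, 3 members were called in DP KO and 1907 genes in all, and 3336 genes for the interaction; fewer libraries entered these fits. With the replicate number as a block (the batch), the KO course from DP to CD4 had 8 members called and 6420 genes against 3671 without; besides the changes of call given above, the block changed no call of a member. In that course 2212 to 3951 genes were called with 1 library left out, the lowest without CD4 KO replicate 1, then CD4 KO replicate 2 (2251) and DP KO replicate 1 (2392). With no filter on low counts, Mcl1 gained a call in CD4 KO (adjusted p = 0.000184) and Bax in the WT course (0.000494). Their log2 fold changes were then -0.33 and 0.38, close to those given above. Pmaip1 in the KO course was 1.12 with no filter and 1.13 with 1 model over all libraries. For these genes the fit with no filter thus lowered the adjusted p at like estimates, and the cause was not tested. In the KO course Pmaip1 was called with the DESeq2 Wald test (0.00597), with 1 model over all libraries (0.0331), with no filter (3.69e-09) and without DP KO replicate 3 (0.0426), Bak1 with no filter (0.0492) and without DP KO replicate 3 (0.0482), and Bbc3 without DP KO replicate 2 (0.0397). For the interaction Mcl1 and Pmaip1 were called with no filter (0.00127 and 0.0168). Bax in the WT course passed with the DESeq2 Wald test (0.0384).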
